A study of Homo sapiens with 20 samples.

Results

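The replication-dependent histone genes of chromosome 6 were examined for binding of cohesin, the ring complex that holds sister chromatids together and folds chromatin into loops. Members were all protein-coding genes of the GENCODE 44 annotation in a 3-Mb interval of the short arm of chromosome 6 on hg38 whose symbol begins with H1-, H2AC, H2BC, H3C or H4C. The rule uses symbol and position only. The interval begins 223 kb before the first of them, H2AC1, and ends 606 kb after the last, H2BC17. This gave 55 genes out of 94 protein-coding genes in the 3 Mb and 20033 on the nuclear chromosomes. They comprise 6 genes of the linker histone H1, 12 of H2A, 15 of H2B, 10 of H3 and 12 of H4.

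Chromatin immunoprecipitation followed by sequencing (ChIP-seq) had been performed for RAD21, SA1 and SA2, which are subunits of cohesin, in cells of 2 lines. One was hTERT CHM13, a telomerase-immortalised line from a complete hydatidiform mole, and the other hTERT RPE-1, a telomerase-immortalised line from retinal pigment epithelium. Neither line carried a further treatment or genetic change according to the labels, and each line is a single cell line that stands for its cell type here. There were 3 libraries of each subunit and of total chromatin input in CHM13 cells and 2 of each in RPE-1 cells, 20 libraries in all. The RAD21 antibody was not the same in both lines, so line and antibody cannot be told apart for RAD21, whereas SA1 and SA2 each had the same antibody in both lines. For all 3 subunits the lines also differed in the sonicator, in the number of replicates and in depth. The study reports fewer uniquely mapped reads for the RPE-1 immunoprecipitations than for those of CHM13, apart from a shallow RAD21 library of CHM13 cells. Drosophila chromatin was added as a control in CHM13 cells only. Line cannot be told apart from these differences either. The values are 6 lists of peak positions, 1 per line and subunit, in which the authors had already pooled the replicates. A list holds no peak height, so a peak is either present or absent below, the spread between replicates cannot be given, and intervals cover counting error only. The lists differ widely in length, from 6416 peaks for SA2 in RPE-1 cells to 73881 for RAD21 in CHM13 cells. The reads behind each list are not given in it, and the part of depth in these lengths was not tested.

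Cells need large amounts of the core histones H2A, H2B, H3 and H4 and of H1 only while DNA is copied, and the genes that supply them lie in tight groups, are switched on together in S phase and are short and mostly without introns. Their messages end not in a poly(A) tail but in a conserved stem-loop that the stem-loop binding protein SLBP recognises. RAD21 is the kleisin subunit that closes the cohesin ring, and SA1 and SA2 are alternative subunits that sit on RAD21. Outside centromeres cohesin is known to accumulate where the zinc finger protein CTCF is bound and, less strongly, at active promoters.

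The stem-loop served as a check of the gene list. The 150 bases after each stop codon were searched for a stem of 6 bases that begins with GG and ends with T, a loop of 4 that begins with T, and the complementary arm, which is the known histone form, and 53 of the 55 members held one, beginning 23 to 63 bases after the stop codon (median 36). H2AC11 and H2AC15 had no match. Of 988 other genes of chromosome 6 searched in the same way, 0 had a match. The 3 most frequent forms are shown because they are the sequence that the members share, with the arms of the stem in capitals.
In 31 members: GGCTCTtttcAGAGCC
In 9 members: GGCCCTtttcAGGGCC
In 8 members: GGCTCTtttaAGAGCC

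The members fell into 4 groups when starts and ends within 100 kb were joined. Group 1 held only the testis-specific pair H2AC1 and H2BC1 (chr6:25723397-25727345, 3.95 kb). Group 2 held 32 genes from H1-1 to H4C8 (chr6:26017032-26285638, 269 kb). Group 3 held 5 genes from H2BC11 to H2AC12 (chr6:27125897-27147562, 21.7 kb) and group 4 held 16 genes from H2BC13 to H2BC17 (chr6:27807479-27893891, 86.4 kb). Group 2 contains 5 of the 6 H1 genes, including the testis-specific H1-6, together with 4 H2A, 8 H2B, 7 H3 and 8 H4 genes.

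Histone gene starts carried few cohesin peaks. In CHM13 cells a RAD21 peak lay within 1 kb of the start of 6 of the 55 members, which is 10.9% (exact 95% interval 4.11 to 22.2%), against 33.0% of all protein-coding gene starts. An SA1 peak lay within 1 kb of 1 member, H3C8 (1.82%, interval 0.0460 to 9.72%), against 17.6% of all starts. No member had an SA2 peak of CHM13 cells, a RAD21 peak of RPE-1 cells, an SA1 peak of RPE-1 cells or an SA2 peak of RPE-1 cells within 1 kb, and each 0 of 55 allows a share of up to 6.49%. The background of all starts for these 4 lists was, in the same order, 14.0%, 6.20%, 2.03% and 1.57%. In CHM13 cells the members' upper limits lay below the background for all 3 subunits. These limits treat the 55 starts as independent, which they are not. With starts under 1 kb apart counted once there were 43 separate starts, 5 of them with a RAD21 peak of CHM13 cells. No interval was made for the 43. For RPE-1 cells the limit of 6.49% is above each background share, so a deficit was not detectable with 55 genes.

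**Figure D1:**
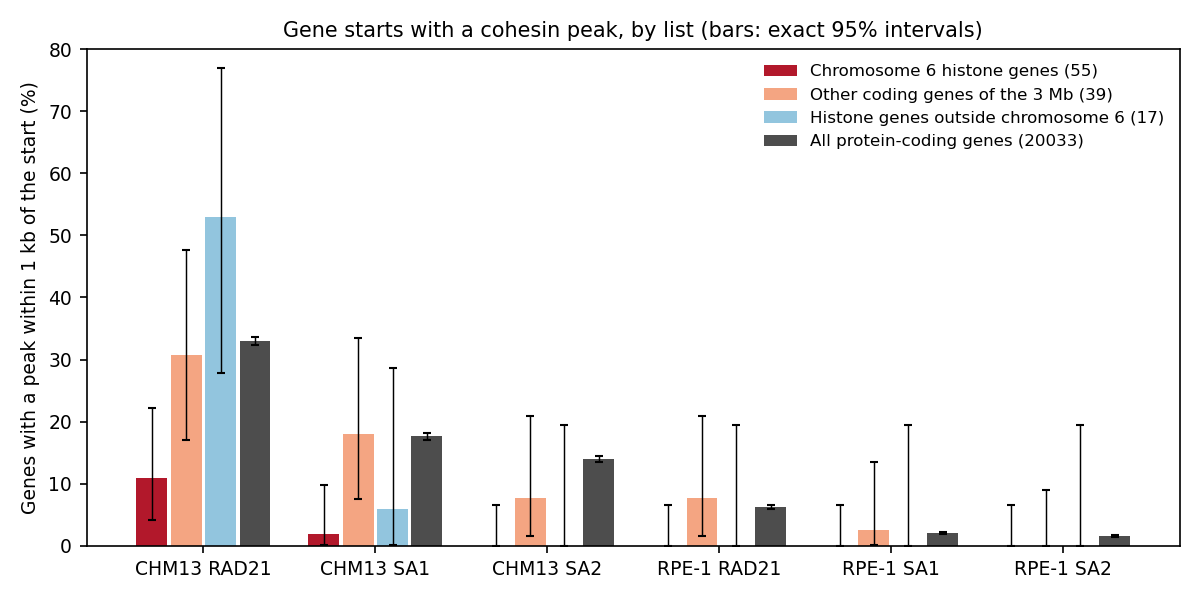
Percentage of genes with a peak within 1 kb of the start (y axis) in each of the 6 peak lists (x axis), for the chromosome 6 histone genes, the other coding genes of the same 3 Mb, the histone genes of other chromosomes and all protein-coding genes, with exact 95% intervals. The histone genes of chromosome 6 reach 10.9% for RAD21 in CHM13 cells, where all coding genes reach 33.0%, and 0% in 4 of the 6 lists.

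The neighbours of the members had RAD21 at about the share of genes in general. Of the 39 other protein-coding genes in the 3 Mb, 12 had a RAD21 peak of CHM13 cells within 1 kb (30.8%, interval 17.0 to 47.6%), 7 had an SA1 peak (17.9%) and 3 an SA2 peak (7.69%). The intervals of the members and their neighbours overlap for each subunit. On chromosome 6 outside the members, 351 of 996 genes had a RAD21 peak (35.2%).

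Histone genes elsewhere in the genome also carried more RAD21 peaks. Of 17 genes with the same symbol prefixes on other chromosomes, 9 had a RAD21 peak of CHM13 cells within 1 kb (52.9%, interval 27.8 to 77.0%), among them H2BC18, H3C13, H4C14 and H4C15 of the group on chromosome 1, and the interval does not overlap that of the members. These 9 genes share 6 peaks, so they are not independent. With SA1 the count was 1 of 17, H2AC21, and with SA2 it was 0 of 17, as in the members.

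Genes of histones that were classed here as replication-independent were counted for comparison. Of 11 such genes, 6 had a RAD21 peak in CHM13 cells (54.5%, interval 23.4 to 83.3%) and 4 an SA1 peak (36.4%, interval 10.9 to 69.2%), intervals that include the shares of all starts. Of them, H1-10, H2AX, H2AZ1 and H2AZ2 had RAD21, SA1 and SA2 peaks at the same time. H1-10 codes for a linker histone variant, H2AX for the variant phosphorylated at DNA breaks, and H2AZ1 and H2AZ2 for H2A.Z. Of 17 genes for factors that switch on the histone genes or process their messages, 6 had a RAD21 peak (35.3%, interval 14.2 to 61.7%), 6 an SA1 peak and 2 an SA2 peak (11.8%), and the RAD21 share is near that of all starts. NPAT, the coactivator that recruits transcription to histone genes in S phase, had RAD21 and SA1, while SLBP had no peak within 1 kb in any list.

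The 6 members with a RAD21 peak near the start were H4C2, H4C3, H2BC8, H2AC8, H3C8 and H4C8, all in group 2. By class they were 3 of 12 H4 genes, 1 of 12 H2A genes, 1 of 15 H2B genes, 1 of 10 H3 genes and 0 of 6 H1 genes. The other 49 members, including all 5 of group 3 and all 16 of group 4, had no peak of any list within 1 kb of the GENCODE gene start. With the start codon in place of the gene start, 7 members had a RAD21 peak of CHM13 cells. By its start codon H3C12 of group 4, not among the 6, also had such a peak, so start peaks were not confined to group 2. With any annotated transcript start the count was also 7. Since H2BC8 and H2AC8 share a peak, 5 peaks account for the 6 members.

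At 3 of these 5 peaks the gene start itself was covered. The peak at H4C3 (chr6:26103282-26104324) ran from 651 bp upstream to 391 bp downstream of the start and so covered most of this intronless gene. The peak at H4C8 (chr6:26285287-26286696) ran from 1058 bp upstream to 351 bp downstream of the start of the GENCODE model, which is 8030 bp long, and its centre fell just outside group 2. The peak between H2BC8 and H2AC8 (chr6:26216555-26217454) began inside H2BC8, ended past the end of H2AC8 and covered both starts. All 3 were in the CHM13 RAD21 list alone.

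H2BC8 and H2AC8 are read in opposite directions from starts 233 bp apart, the arrangement that is typical of H2A and H2B genes. The 232 bases between their starts (chr6:26216689-26216920, forward strand) are shown because they are the promoter of both genes and lie wholly under a RAD21 peak. Capitals mark, on either strand, the TATA box TATAAA, the CCAAT box CCAAT and the octamer ATTTGCAT of H2B promoters.
H2BC8 and H2AC8 promoter: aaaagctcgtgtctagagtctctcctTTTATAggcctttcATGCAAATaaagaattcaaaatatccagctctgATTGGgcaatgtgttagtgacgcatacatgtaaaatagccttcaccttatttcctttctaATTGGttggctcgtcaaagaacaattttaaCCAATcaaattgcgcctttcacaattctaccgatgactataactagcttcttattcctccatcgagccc
The octamer and the TATA box lie at the H2BC8 end. RefSeq promoters of the GRCh38.p14 table, from 250 bases before to 50 after the start, were found for 50 of the 55 members, not for H4C1, H4C3, H2AC12, H3C11 and H3C12. The RefSeq starts of H2BC6, H3C4 and H4C8 lie 11702, 2007 and 104 bp from the GENCODE start, and the H3C4 window is the same as that of H2AC7. These members were left out, as over 100 bp away, which leaves 47. The octamer was in 11 of 14 H2B and 9 of 11 H2A promoters, against 1.83% of 27305 promoters of all genes. The windows of divergent H2A and H2B pairs overlap and both strands were searched. The same octamer can therefore count for both genes of a pair, and the H2A and H2B counts are not independent. TATAAA was in 32 of the 47 (68.1%, all promoters 12.3%) and CCAAT in 41 (87.2%, all promoters 35.4%), but in only 3 of the 9 H4 promoters.

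Peaks were counted at all divergent promoters of this kind. Among the members, 11 neighbouring divergent pairs have starts less than 1 kb apart, 10 of them an H2A and an H2B gene and the other H3C7 with H2BC9. RAD21 peaks of CHM13 cells lay within 1 kb of either start at 1 of the 11 pairs (9.09%, exact 95% interval 0.230 to 41.3%), the H2BC8 and H2AC8 pair, and SA1 and SA2 peaks at 0, which allows up to 28.49%. Of 813 other divergent protein-coding pairs of the genome with starts under 1 kb apart, 317 had RAD21 (39.0%), 269 SA1 (33.1%) and 103 SA2 (12.7%) peaks of the same line. The median spacing was 240 bp in the member pairs and 127 bp in the others, and the members' intervals include the others' shares for RAD21 and SA2 but not for SA1. For RPE-1 the 813 pairs had 5.90% with RAD21, 0.984% with SA1 and 1.11% with SA2, and the 11 member pairs had 0 with each.

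The remaining pair of start-associated peaks lay downstream of the genes. At H4C2 the RAD21 peak (chr6:26026133-26026643, intergenic) lay 640 to 1150 bp downstream of the start, beyond the 388-bp gene, and was in the CHM13 RAD21 list alone. At H3C8 the RAD21 peak of CHM13 cells (chr6:26270492-26270930) lay 483 to 921 bp downstream of the start, at and beyond the end of the gene, and overlapped an SA1 peak (chr6:26270443-26270829). H3C8 was thus the 1 member with peaks of more than 1 list within 1 kb of its start.

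Both of these peaks held the 12-base pattern CCNNNAGNNGGC, the shared core of the site that CTCF binds, searched on both strands and overlapping none of the promoter motifs above. The sequences about the peak centres are shown with matches in capitals, on the forward strand of hg38, with 150 bases at H4C2 (chr6:26026314-26026463) and 120 at H3C8 (chr6:26270652-26270771).
H4C2 peak: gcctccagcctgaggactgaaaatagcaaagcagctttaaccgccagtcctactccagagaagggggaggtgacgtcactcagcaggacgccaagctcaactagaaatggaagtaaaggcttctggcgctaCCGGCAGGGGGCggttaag
H3C8 peak: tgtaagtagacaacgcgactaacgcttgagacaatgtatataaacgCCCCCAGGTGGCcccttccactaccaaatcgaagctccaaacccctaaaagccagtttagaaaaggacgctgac
At H3C8 the match lay 7 bp from the centre of the RAD21 peak and at H4C2 63 bp from it, and a second match on the reverse strand, outside the stretch shown, lay 82 bp to the other side of that centre. A match is a description of the sequence and not evidence of CTCF binding, which was not analysed here. None of the 47 member promoters held the pattern, against 10.4% of all promoters.

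The groups as a whole held peaks at about the density of their surroundings. Peaks were assigned to the groups by their centres, over 0.381 Mb. RAD21 in CHM13 cells had 11 peaks in the groups, 28.9 per Mb (95% Poisson interval 14.4 to 51.7), while the rest of the 3 Mb had 25.2 per Mb (66 peaks) and the rest of chromosome 6 26.0 per Mb. The ratio to the rest of the 3 Mb was 1.15 (conditional exact 95% interval 0.546 to 2.19) and to the rest of chromosome 6 1.11 (0.555 to 1.99).

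SA1 of CHM13 cells had 7 peaks in the groups, 18.4 per Mb, while the rest of the 3 Mb had 12.6 per Mb, a ratio of 1.46 (0.545 to 3.36). SA2 of CHM13 cells had 5, 13.1 per Mb against 10.7, a ratio of 1.23 (0.370 to 3.22). RPE-1 cells had 3 RAD21 peaks and 3 SA1 peaks in the groups, with ratios of 1.21 (0.228 to 4.20) and 2.95 (0.492 to 12.9). The first became 3.44 with only peaks that overlap another subunit of the line and the second 1.90 with a surrounding interval of 4 Mb, both with intervals that include 1. There was no SA2 peak of RPE-1 cells in the groups and only 3 in the rest of the 3 Mb, which leaves a ratio of up to 16.7. Against the rest of chromosome 6 CHM13 cells had an SA1 ratio of 1.35 (0.543 to 2.79) and an SA2 ratio of 0.818 (0.265 to 1.91), and RPE-1 cells a RAD21 ratio of 1.71 (0.351 to 5.00) and an SA1 ratio of 2.04 (0.419 to 5.98). None of the 12 intervals left out 1, so no difference in density was detectable with these numbers of peaks, and the intervals still allow differences of several fold for RPE-1 cells.

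**Figure D2:**
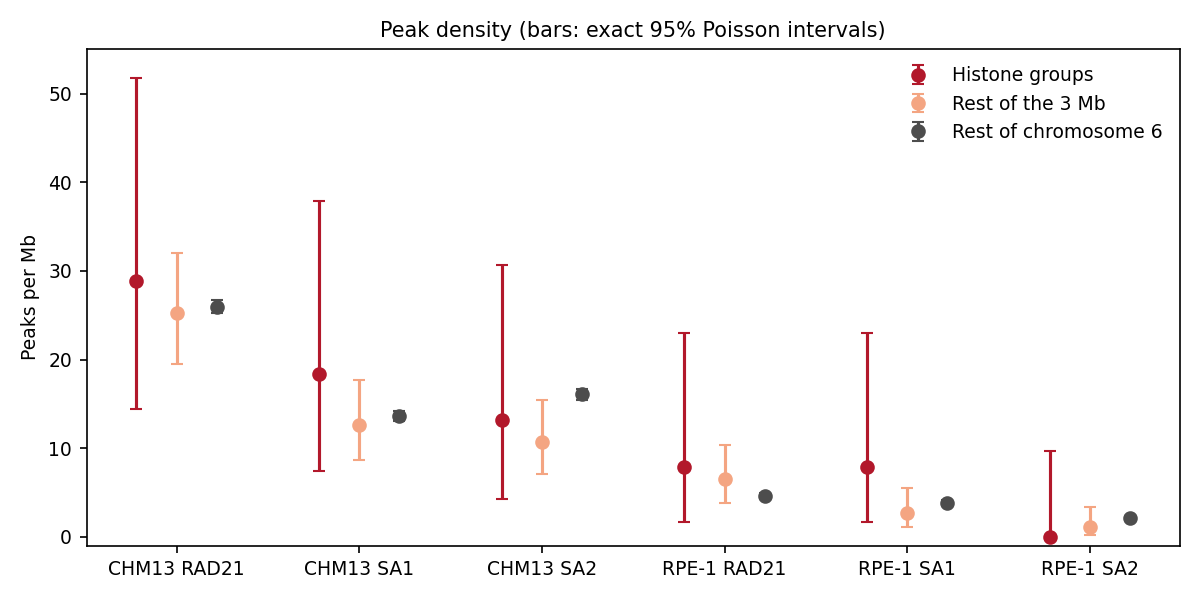
Peaks per Mb (y axis) in the 4 histone groups combined, in the rest of the 3 Mb and in the rest of chromosome 6, for each list (x axis), with exact 95% Poisson intervals. RAD21 of CHM13 cells stands at 28.9 per Mb in the groups and 25.2 in the rest of the 3 Mb, and the intervals of groups and surroundings overlap in every list.

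The balance between the lines and between the subunits could be compared only loosely. For RAD21 the odds of a peak lying in the groups rather than in the rest of the 3 Mb were 0.945 times as high in CHM13 as in RPE-1 cells (conditional exact odds ratio, interval 0.215 to 5.86), and for SA1 0.503 times (0.0839 to 3.75). For SA2 the counts were 5 and 28 in CHM13 cells against 0 and 3 in RPE-1 cells, which gives a lower bound of 0.0593 and no upper one. SA1 against SA2 gave 1.19 (0.287 to 5.29) in CHM13 cells, where both lists share most of these loci, and in RPE-1 cells 3 and 7 peaks against 0 and 3, with a lower bound of 0.107. All 5 intervals include 1.

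Peaks of the 6 lists that overlapped were merged, which gave 11 loci in the groups, 8 in group 2, 1 in group 3, 2 in group 4 and 0 in group 1. All 11 held a RAD21 peak of CHM13 cells. Of these peaks, 7 overlapped SA1 of CHM13 cells (63.6%, rest of chromosome 6 49.4%), 5 overlapped SA2 of CHM13 cells (45.5%, rest 58.9%) and 4 overlapped no other list (36.4%, rest 35.5%). Their median width was 756 bp, against 742 bp in the rest of chromosome 6.

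**Figure D3:**
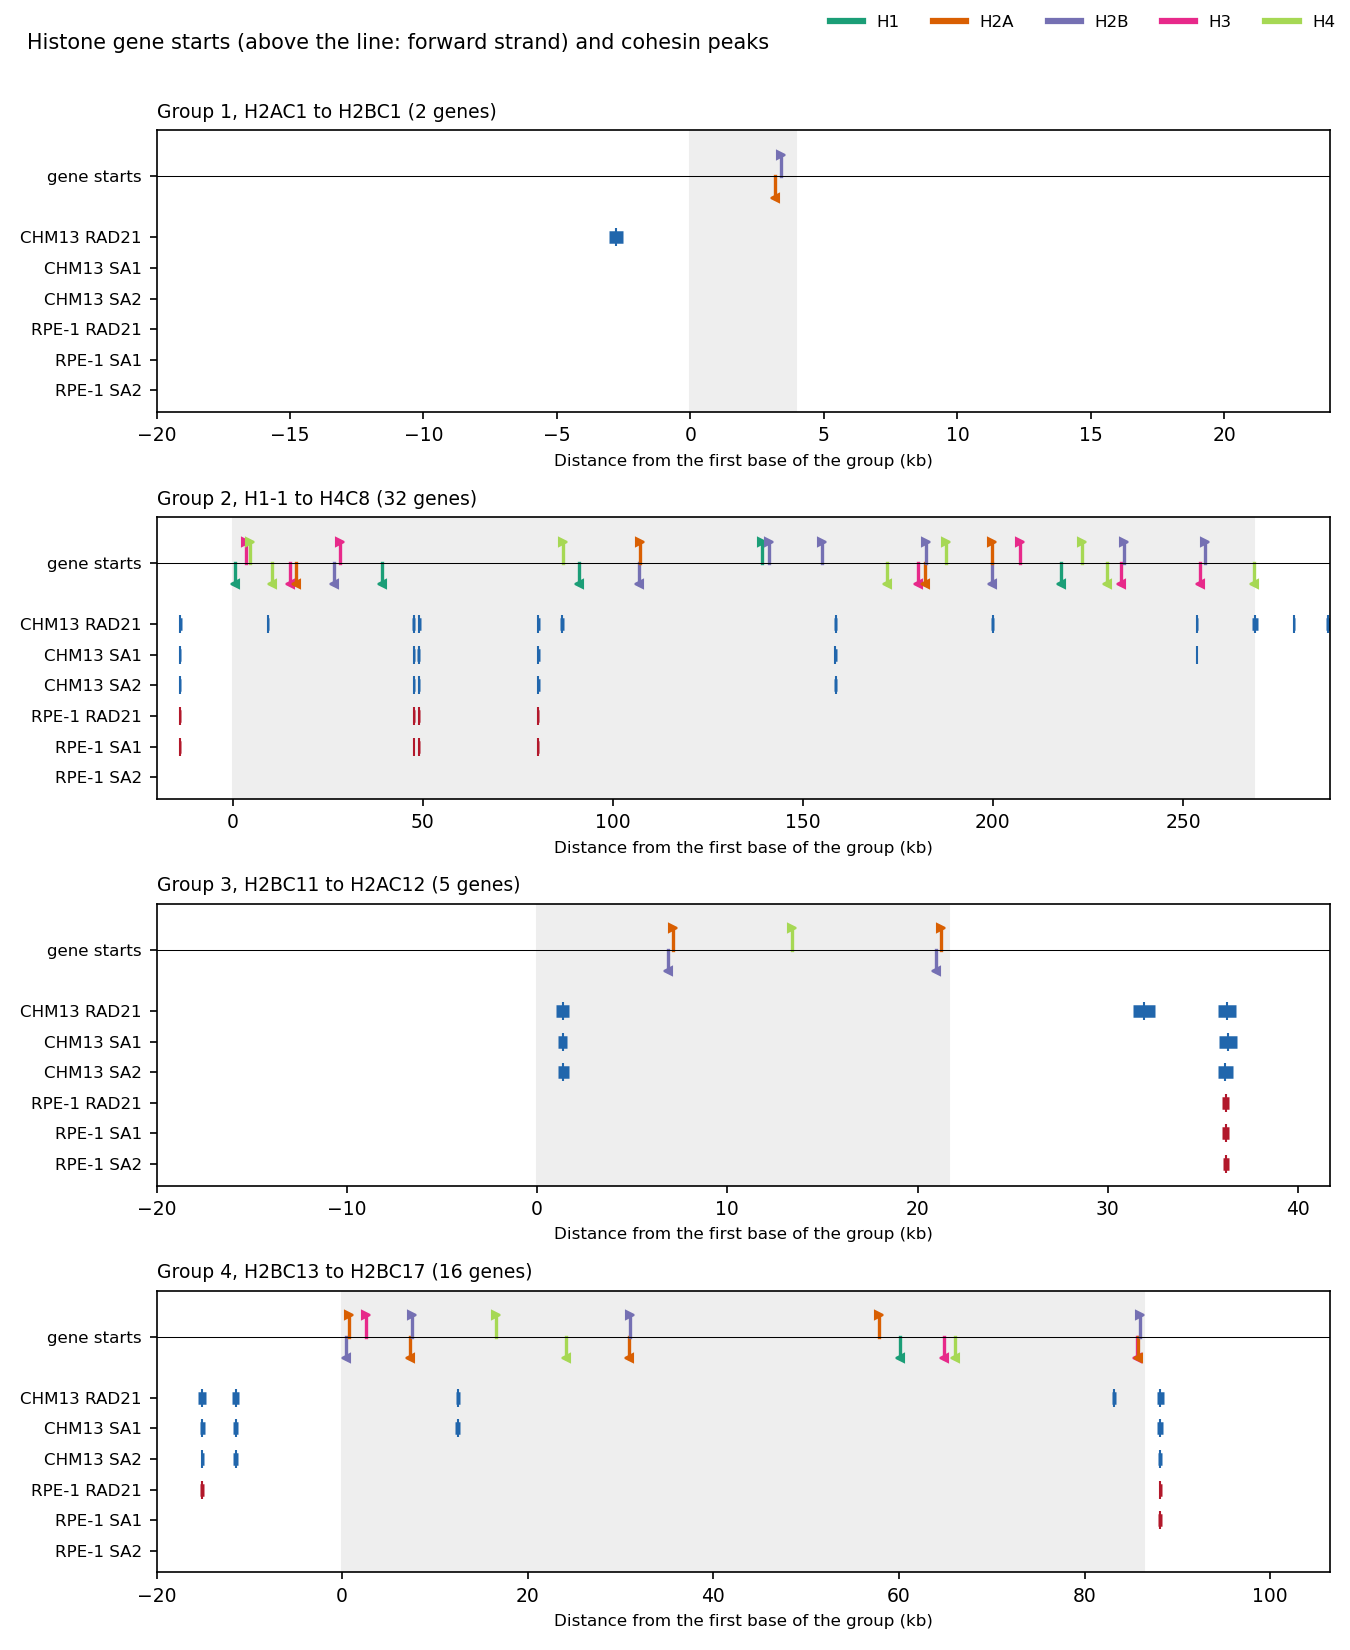
Map of the 4 histone groups, with distance from the first base of each group in kb on the x axis, gene starts in the top row (above the line forward strand, below it reverse strand, coloured by histone class) and the peaks of the 6 lists in the rows beneath (CHM13 blue, RPE-1 red), where the shaded span is the group. The peaks of RPE-1 cells inside the groups all lie in the wide gap of group 2 between H1-2 and H4C3.

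The subunits were then counted apart for RAD21 peaks near member starts and farther from them. Of the 5 RAD21 peaks within 1 kb of a member start, 1 overlapped SA1 or SA2 of CHM13 cells and 0 a peak of RPE-1 cells. Of the 7 RAD21 peaks in the groups that were farther from every member start, 6 overlapped SA1, 5 of them also SA2, and 3 overlapped peaks of RPE-1 cells. These distances are to GENCODE gene starts. The peak among the 7 without SA1 or SA2 lay at H3C12, within 1 kb of its start codon. Counted by start codons it would be among the near peaks. On chromosome 6 outside the groups, 58.9% of 321 RAD21 peaks near other coding starts and 64.4% of 4086 peaks away from starts overlapped SA1 or SA2, and 21.5% and 21.4% overlapped a peak of RPE-1 cells. With 5 and 7 peaks at the histone genes this is a description without a test.

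The loci present in the largest number of lists lay together in group 2, in the 47.5 kb between the starts of H1-2 and H4C3, which are read away from each other. H1-2 codes for a linker histone of most somatic cells and H4C3 for histone H4. The first locus was intergenic, and the second (chr6:26065648-26066474, intergenic) was centred 9.63 kb upstream of H1-2. The third (chr6:26097031-26097859) was centred 6.49 kb upstream of H4C3, in an intron of the long GENCODE model of H2BC4 and in an untranslated exon of a neighbouring gene that is not a histone gene. Each was present in all lists but SA2 of RPE-1 cells.

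These 3 loci accounted for all 3 RAD21 and all 3 SA1 peaks of RPE-1 cells in the groups. At the first of them the peaks of CHM13 cells were 800 bp (RAD21), 751 bp (SA1) and 546 bp (SA2) wide, and those of RPE-1 cells 305 bp (RAD21) and 307 bp (SA1). The peaks of RPE-1 cells lay inside the RAD21 peak of CHM13 cells at all 3 loci. Loci in 5 or 6 lists made up 3 of 11 in the groups (27.3%) and 6 of 72 in the rest of the 3 Mb (8.33%), a difference that was not tested.

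The middle 150 bases of the RAD21 peak of CHM13 cells at the second locus (chr6:26066022-26066171) are shown on the forward strand, because it is a site upstream of H1-2 that both cell lines share.
Second locus: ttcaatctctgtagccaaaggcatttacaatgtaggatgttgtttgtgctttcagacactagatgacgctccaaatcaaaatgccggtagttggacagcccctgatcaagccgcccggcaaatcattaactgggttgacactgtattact
No exact match to CCNNNAGNNGGC was found in the RAD21 peaks of these 3 loci, which says only that those letters are not in them.

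The other loci over 1 kb from a GENCODE member start were seen in CHM13 cells alone, and 1 of the 4 was intergenic. A locus with all 3 subunits (chr6:26175242-26176028) lay 3.58 kb downstream of the GENCODE start of H2BC6, in an intron of its 12597-bp model and before H4C4. The RefSeq start of H2BC6 lies 11702 bp from the GENCODE start, and the locus is upstream of that RefSeq start. A second (chr6:27126905-27127585) lay 5.55 kb downstream of the start of H2BC11 in group 3, in an intron of its 6899-bp model. A locus with RAD21 and SA1 (chr6:27819692-27820149, intergenic) lay between H2BC14 and H4C11 in group 4, 4.90 kb from the first start and 4.16 kb from the second. The remaining one, RAD21 alone (chr6:27890444-27890853), lay in an exon of the 2792-bp GENCODE model of H3C12 (chr6:27890315-27893106, reverse strand). It was 2.46 kb downstream of the start of that model and close to its other end. H3C12 had no RefSeq promoter, so this start could not be compared with a RefSeq one. The peak centre lay outside the annotated untranslated parts of that exon, and so in the coding region by this annotation. That region spans 360 overlapping words of 50 bases, under 1 kb, so the H3C12 start codon lay within 1 kb of the peak. The peak is thus away from a start only by the GENCODE gene start.

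Of these, the H2BC11 and the H4C11 locus held the CTCF core. The 240 bases at the first (chr6:27127126-27127365) are shown because 2 matches stand 75 bp apart in near-copies of the same stretch, and the 120 bases at the second (chr6:27819868-27819987) because it is the locus in group 4 with SA1. Matches are in capitals, forward strand.
H2BC11 locus: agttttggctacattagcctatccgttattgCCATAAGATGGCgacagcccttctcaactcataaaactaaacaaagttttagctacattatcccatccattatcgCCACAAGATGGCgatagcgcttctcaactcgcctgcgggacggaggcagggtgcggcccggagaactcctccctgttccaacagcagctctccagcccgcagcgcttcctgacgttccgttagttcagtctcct
H4C11 locus: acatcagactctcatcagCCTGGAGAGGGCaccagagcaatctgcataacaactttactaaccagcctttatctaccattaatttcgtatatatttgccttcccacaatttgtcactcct
Within 300 bases about the peak centre, 4 of the 11 RAD21 peaks in the groups held the pattern (36.4%), against 16.2% of 4408 RAD21 peaks in the rest of chromosome 6. In adjoining windows of 300 bases the pattern was in 1.80% of all chromosome 6 and in 3.63% of the groups. The 3 loci shared by both lines were not among the 4. For the other lists the windows with the pattern were 3 of 7 for SA1 (42.9%, rest of chromosome 6 25.3%) and 1 of 5 for SA2 (20.0%, rest 21.8%) in CHM13, and 0 of 3 for RAD21 (rest 42.1%) and 0 of 3 for SA1 (rest 36.1%) in RPE-1.

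The nearest peaks beyond the group edges lay at varied distances. The median stretch between RAD21 peaks of CHM13 cells on chromosome 6 was 14.6 kb. At the end of group 2 the H4C8 peak described above overlapped the edge. A locus in 5 lists (chr6:27895229-27896032, intergenic) lay 1.34 kb beyond H2BC17, the last gene of group 4, and its peaks were the nearest to the H2BC17 start in 5 lists, at 1804 to 2034 bp. A locus in the same 5 lists (chr6:26002913-26003675, intergenic) lay 13.4 kb before H1-1, the first gene of group 2. Group 4 was preceded by a locus with all 3 subunits of CHM13 cells at 11.1 kb, and group 3 followed by a RAD21 peak of CHM13 cells at 9.65 kb. Before group 3 the nearest locus lay 46.5 kb away. Group 1 had a single RAD21 peak of CHM13 cells 2.54 kb before H2AC1 and none on its other side for 215 kb.

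Between the peaks lay runs of histone genes without RAD21 in CHM13 cells. The longest inside a group, 70.9 kb, held the GENCODE starts of H1-6, H2BC4, H2AC6, H1-4, H2BC5 and H2BC6. The RefSeq start of H2BC6 lies outside this stretch. Another of 70.3 kb in group 4 held the starts of 8 members from H4C11 to H4C13, including H1-5, and a stretch of 53.0 kb in group 2 held those of H3C6, H1-3, H4C6, H4C7, H3C7 and H2BC9. Among the 4418 stretches between neighbouring RAD21 peaks on chromosome 6, with a median of 14.6 kb, 88.1% were shorter than the first, 87.9% shorter than the second and 82.4% shorter than the third. In all, 51 of the 55 starts lay in 11 such stretches and 4 inside a peak. The 11 ranged from 4.38 kb, longer than 23.6% of all stretches, to 222 kb at the pair of group 1, longer than 97.7%. Stretches were taken because they hold member starts, which favours long ones, so these shares are a description and not a test.

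The distance from a start to the nearest peak was also measured. For RAD21 in CHM13 cells the median over the 55 members was 10.1 kb (range 0 to 25.1 kb), against 6.71 kb over all protein-coding genes, and H2AC16 in group 4 was the farthest. For SA1 of CHM13 cells the medians were 18.2 kb and 16.1 kb, and for SA2 of the same line 23.0 kb and 16.9 kb. The lists of RPE-1 cells gave 29.1 kb against 36.1 kb for RAD21, 56.9 kb against 61.6 kb for SA1 and 314 kb against 92.8 kb for SA2. The members' medians were thus above those of all genes in 4 lists and below them for RAD21 and SA1 of RPE-1 cells. The 39 other genes of the 3 Mb had larger medians than the members in all 6 lists, at 11.7, 26.3 and 26.3 kb for RAD21, SA1 and SA2 of CHM13 and 72.3, 107 and 417 kb for those of RPE-1. For RAD21 of CHM13 cells, 4 of the 55 members and 15 of the 39 other genes lay over 20 kb from a peak.

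**Figure D4:**
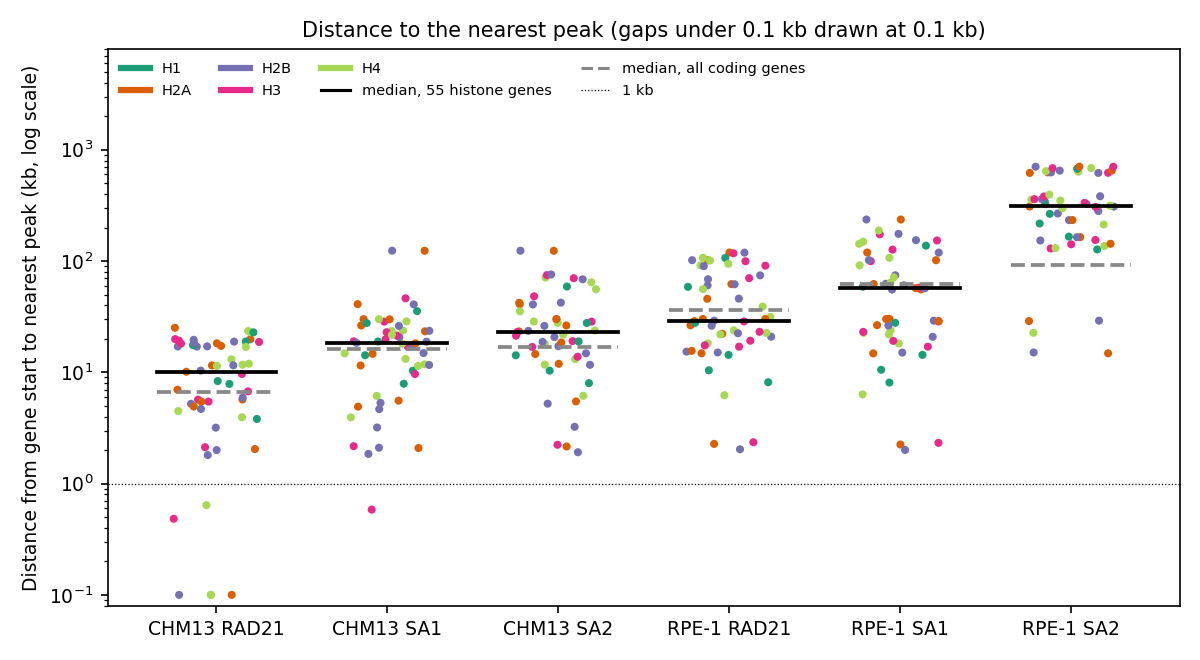
Distance from each of the 55 histone gene starts to the nearest peak (y axis, kb, log scale) in each list (x axis), coloured by histone class, with the median of the members as a solid line and that of all coding genes as a dashed line. For RAD21 of CHM13 cells the members' median is 10.1 kb and 6 points lie below the 1-kb line.

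Peaks were also sorted by the direction of the genes on either side. Of 51 intervals between neighbouring starts within a group, 16 are divergent, 13 convergent and 22 on the same strand. Peaks were placed by their centres and intervals by the GENCODE starts. RAD21 peaks of CHM13 cells lay in 1 divergent interval (H1-2 to H4C3, 4 peaks), 3 convergent intervals and 3 same-strand intervals. Measured from the RefSeq start of H2BC6, the peak counted in the convergent interval from H2BC6 to H4C4 would lie in a same-strand interval. The peak that covers the H2BC8 and H2AC8 promoter is counted in the same-strand interval from H2AC8 to H3C6, since its centre lies 83 bp past the H2AC8 start. The divergent interval held all the group peaks of RPE-1 cells.

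Histone genes are close copies of each other, which can make reads hard to place, and the share of repeated sequence was therefore measured. Within 1 kb of a start a median of 1.64% of the 50-base words occurred more than once in hg38 (range 0 to 23.6%). Of the 55 members, 40 were under 5% and 7 over 15%. Those 7 all lie in groups 3 and 4, where no member had a peak within 1 kb of its GENCODE start. By the start codon H3C12 of group 4 had a RAD21 peak of CHM13 cells. H4C12 and H4C11 had 22.3% and 23.6%, and each 50-base word of their coding regions occurred 2 times. The 6 members with a peak within 1 kb of the GENCODE start, all in group 2, had 0 to 1.43%. Reads were paired and longer than these words, and the part of repeats in the low number of start peaks was not tested.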

How the data were processed

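The material was 6 deposited lists of cohesin ChIP-seq peaks, each from 3 (CHM13) or 2 (RPE-1) replicates, given as start and end positions on hg38. Per the methods, the authors used bwa mem for alignment, samtools for filtering, macs for peaks of each replicate and GenomicRanges to merge these, keeping loci present in more than 1 replicate. For RPE-1 cells, with 2 replicates, that means both. The methods state this for CHM13 v1.0 only, and the labels name hg38. The sequence of 1 locus is not reported here. The 6 lists on CHM13 v1.0 and the input libraries were not used. Depth per library is not in the lists. Positions were written 1-based. Starts, exons and codons came from GENCODE 44, promoters from RefSeq. Analysis used Python 3.11.15, numpy 2.4.6, scipy 1.17.1 and matplotlib 3.10.9. A peak was near a start when any base lay within 1 kb. Density ratios carry conditional exact 95% intervals, called where the interval leaves out 1, and were tested on simulated data. The simulated peaks were independent and about as many as RAD21 of CHM13 cells has in the rest of the 3 Mb. The shorter lists and clustered peaks were not simulated. The members and lists were chosen with earlier results of these data known. Named were all members with a peak within 1 kb, members beside peaks away from starts in the most lists, and counts for 17 other histone genes, 11 replication-independent histone genes and 17 regulators. Genes named at the edges, in RAD21-free stretches, in sequence checks or as the farthest were chosen after their values were seen. The alternatives concerned windows, start positions, group borders, peak filters and surroundings.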

Additional observations from a re-analysis of the deposited data

How the results depend on the processing

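No paired analysis was possible because the lists pool the replicates, and for the same reason no replicate could be left out. Of 153 alternative values, 145 kept the direction and side of the threshold, or stayed within 1.5 times the count. Many of the 145 had little room to differ. Joining members at gaps up to 50 or 200 kb gave the main density in every list. Start counts of RPE-1 cells and SA2 densities of RPE-1 cells were 0 in every setting. With only peaks that overlap another subunit of the line, members with a RAD21 peak of CHM13 cells within 1 kb fell from 6 to 1. For SA1 of CHM13 cells the count of 1 became 0 with 500 bp and 2 with 2 kb on either side, and for SA2 the count of 0 became 1 with 2 kb. Leaving out peaks near coding starts turned the RAD21 density ratio of CHM13 cells to 0.909 against the rest of the 3 Mb and 0.764 against the rest of chromosome 6, where the share of bases covered gave 0.889. Joining peaks closer than 1 kb turned the SA2 ratio of CHM13 cells against the rest of the 3 Mb to 0.983. The RAD21 ratio of RPE-1 cells rose to 3.44 against the rest of the 3 Mb and 2.60 against the rest of chromosome 6 with only peaks that overlap another subunit, and their SA1 ratio was 1.90 with the interval widened to 4 Mb. The interval included 1 in all 84 density alternatives that have one, and in all 20 odds ratios, of which those for SA2 between the lines and for SA1 against SA2 in RPE-1 cells had no finite value in any setting. The small number of peaks in the groups, 0 to 11 per list, limits what can be seen.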
